A study of Homo sapiens with 6 samples.

Results

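The control arrays of this series profiled the ovarian cancer line PEO4, an established line of the high-grade serous type, in cells with an NS (non-silencing) control shRNA. They were taken by their sample titles, which gave 2 of the 6 arrays of the series, NS replicate 1 and NS replicate 2. The other 4 arrays were of PEO4 cells with the SHMT1 shRNAs F11 and F12, and no value is compared with them here. The shRNA was delivered by a lentivirus and the cells were selected on puromycin, so the arrays show a transduced and selected population grown in serum-supplemented RPMI medium, and untransduced PEO4 cells were not analysed here. The labels do not say whether the 2 arrays came from separate cultures, so the spread between them may be technical.

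High-grade serous carcinoma is thought to arise mainly from the secretory epithelium of the fallopian tube, which derives from the Mullerian duct, and its cells usually keep transcription factors of that epithelium such as PAX8 and WT1. The tumour cells are epithelial and carry simple keratins and cadherin-based junctions, and they shed MUC16, the CA125 antigen measured in patients' blood. The series belongs to a study of folate metabolism, in which enzymes of the cytosol and of the mitochondria pass single carbons from serine to nucleotides and methionine.

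Each array was an Illumina HumanHT-12 BeadChip, which holds 47321 probes. Its values are quantile-normalized intensities on a linear scale, and pairs of values below are the intensities on NS replicate 1 and NS replicate 2, in that order. The background was taken as the most common intensity of the 2 arrays, 85.3, with the spread of the values under it, and a probe was called above background if it exceeded the 95th percentile of that background, 91.3, on both arrays. A gene was read by its brightest named probe. Further probes are stated for some genes only, and a gene given without them may also have a probe at background. Of 20045 genes with a named probe, 11542 were above background, or 57.6%. Intensity depends on the probe as well as on the transcript, so a rank is one of brightness and not of abundance, and with 1 group of 2 arrays no test was run.

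**Figure D1:**
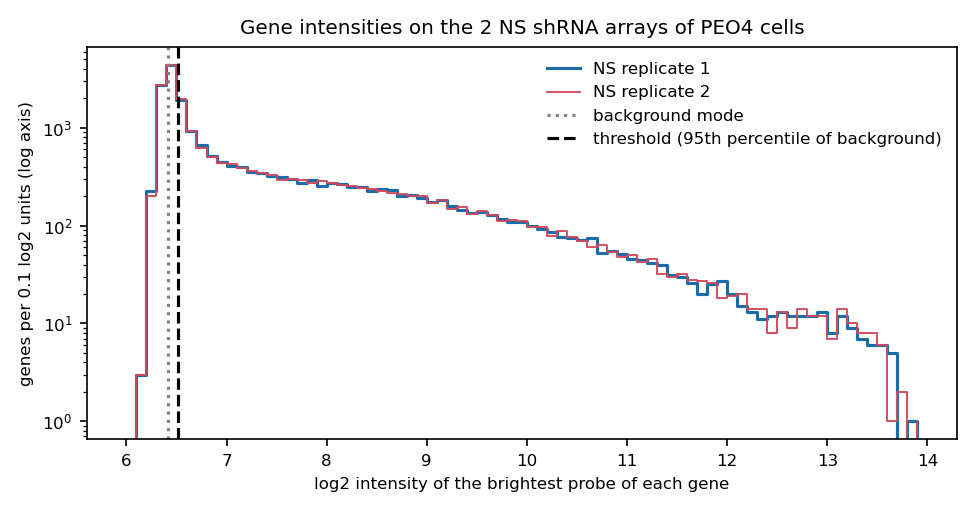
Number of genes (log axis) in steps of 0.1 on the log2 scale against the log2 intensity of each gene's brightest probe, with 1 line for each NS array; the dotted line marks the background mode of 85.3 and the dashed line the threshold of 91.3. The lines run together, which follows from quantile normalization and is not a result of the arrays. The peak of each line lies around the background, and a long tail reaches 15895.

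The brightness of a known silent family gauges the threshold. Olfactory receptors, which are made by sensory neurons of the nose, had a named probe for 371 genes. Of these, 15 (4.04%) were above background, the highest value of any of them was 179 on 1 array, and 0 exceeded 2 times the background mode, an intensity of 171, on both arrays. A total of 6511 genes exceeded that level on both arrays, and a gene between 91.3 and 179 therefore lies within the range of the olfactory receptors. In the other direction, a gene at background is not shown to be absent. NPM1, the abundant nucleolar histone chaperone that nearly all cells make, read 84.0 and 85.6, and the ribosomal protein gene RPL10 read 84.2 and 86.4 at the brighter of its 2 probes.

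The 2 arrays gave nearly the same picture. Across all probes Pearson's r of the log2 intensities was 0.996, and across the genes above background it was also 0.996; these are correlations across probes or genes of 2 arrays and describe the pair. For genes not above background r was 0.404, over a range of intensity that the threshold makes narrow. The SD of the log2 difference between the arrays was 0.13 for genes above background and 0.073 for the others. Of the genes above background, 9 (0.0780%) differed by more than 1.5-fold. The gene that differed most was CXCL1, a neutrophil-attracting chemokine, at 895 and 525, which is 1.71-fold. PTGES3, a co-chaperone of HSP90, read 565 and 354. ATP2A2, the calcium pump of the endoplasmic reticulum, was the brighter on replicate 2, at 645 and 1013. The others of the 10 largest differences were RPL21P28, RNA28SN5, TCP1, LMO4, P3H4, PTMA and ID4, each brighter on replicate 1.

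Ribosomal protein genes filled much of the top of the range. The mRNAs of ribosomal proteins and of many translation factors are known to begin with a run of pyrimidines, the 5′ terminal oligopyrimidine tract, through which growth signals adjust their translation. The windows below run from 20 bases before to 10 bases after the annotated transcription start of the 8 brightest ribosomal protein genes that could be printed, read from RefSeq promoters on GRCh38.p14 and written along the gene's strand. They are shown because this family was the largest of the groups counted among the 100 brightest genes with a named probe; 58 of the 100 brightest probes have no gene symbol. Capitals mark the longest run of C and T of at least 7 bases that touches the 5 bases on either side of the start.
RPL41, chr12:56116613-56116642, plus strand: gtagacggaacttcgCCTTTCTCTCggcct
RPS27, chr1:153990742-153990771, plus strand: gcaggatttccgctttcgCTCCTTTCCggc
RPS12, chr6:132814549-132814578, plus strand: ggcatgcgtgcggatgaggCCTCTTTCCCT
RPS25, chr11:119018334-119018363, minus strand: ccgtttctgagcagcgCTTCCTTTTTgtcc
RPS29, chr14:49598701-49598730, minus strand: ttttcccccgagcgcgcagctggcagcggt
RPL38, chr17:74203658-74203687, plus strand: ccggaaacggaagtctcgTTCTTTTTCgtc
RPLP2, chr11:809947-809976, plus strand: gcctcttgcgtcggcgCCTTCCTTTTCCTC
RPL19, chr17:39200263-39200292, plus strand: gggtttgggCTCTCCCCTTCgcagataatg
The run was 10 bases long in RPL41, 11 in RPS12 and 17 in RPLP2, where it goes on past the window. RPS29 had no run of that length at its annotated start. In RPL19 the run ended just before the annotated start, so it lay outside the transcript as annotated. A run counted here therefore need not be one with which the mRNA begins. Over the ribosomal protein genes with a matched promoter, 48 of 65 (73.8%) had such a run, against 15.1% of all 27305 promoters of that length in the table. Among the translation factors it was 7 of 11.

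RPL41 read 13022 and 13505, RPS27 13274 and 12199, and RPS12 11786 and 13022. Of 77 ribosomal protein genes with a named probe, 74 (96.1%) were above background, beside 57.6% of all genes, and their median intensity was 6076, beside 102 over all genes. The exceptions were RPL10, RPL22L1 and RPL3L, the last of which, a form of striated muscle, read 85.1 and 86.2. RPL37 read 107 and 99.3 and was within the range of the olfactory receptors. Many ribosomal protein genes have near-identical processed pseudogenes, so the probe of one can report another.

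The brightest gene on the arrays was EEF1A1, the elongation factor that brings aminoacyl-tRNA to the ribosome, at 15194 and 15895. TPT1, the translationally controlled tumour protein, read 12696 and 12153. PABPC1, which binds poly(A) tails, read 10031 on both arrays. The list of translation factors, which also takes in TPT1, NACA and BTF3, was above background for 15 of 16 genes, beside 57.6% of all genes. Its median intensity was 5562. The exception was EEF1A2, the form of EEF1A known from neurons and muscle, at 85.4 and 87.6.

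Genes listed with the cytoskeleton formed the next group among the brightest, and 22 of 22 were above background, beside 57.6% of all genes. The cytoplasmic actin ACTG1 read 11835 and 11059. TMSB4X, which holds actin monomers, read 10770 and 10586, while its other probe was at background, at 82.5 and 83.2. TMSB10, a related actin-binding peptide, read 8905 and 10520. ANXA2, a calcium-dependent membrane-binding protein, read 8805 and 8081.

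Among the 100 brightest genes, 37 were ribosomal proteins, 6 were on the list of translation factors and 9 on that of the cytoskeleton. Both lists were broad, the first with TPT1, NACA and BTF3 and the second with ANXA2 and S100A10. A further 5 belonged to the respiratory chain and ATP synthase and 3 to glycolysis. Another 10 were annotated pseudogenes, led by RPL13AP5 at 12959 and 13813 and RPSAP9 at 11940 and 12240, both copies of ribosomal protein genes. The remaining 30 fell in none of these groups. MT2A, a metallothionein that binds zinc, copper and cadmium, read 11750 and 11108. IFI27, an interferon-inducible protein, read 9410 and 9911. SPOCK2, a testican proteoglycan of the extracellular matrix, read 9792 and 9819 at its single probe. LAPTM4B, a lysosomal membrane protein gained in several carcinomas, read 9872 and 8805, and its further probe 8139 and 8530.

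Some of the brightest names rested on 1 probe that the gene's other probes did not share. F2R, the thrombin receptor PAR1, ranked among the 20 brightest at 9704 and 11608, but its other probe read 103 and 101. LAIR1, an inhibitory receptor of leukocytes, read 10520 and 10557 at 1 probe and 91.4 and 91.4 at the other. CLUAP1, a protein of cilia, read 9599 and 10139, and its other probes lay far below. Beyond the 40 brightest, and named after their values were seen, CCR6 read 7607 and 6695 with its other 2 probes at background, and ITIH5 7872 and 8461 with 4 others at background. In all, 61 of the 100 brightest genes had 2 or more probes, and 7 of these 61 had a further probe at background on both arrays. That count leaves out dim probes a little above the threshold, such as those of F2R and LAIR1, so more names may rest on 1 probe. Over all genes with several probes whose brightest was above background, 2029 of 4550 (44.6%) had such a probe.

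The 6 genes that mark the line as serous and epithelial were all above background, beside 57.6% of all genes, and all 6 lay in the brightest 10% of genes. CD24, a glycosylated surface protein of many carcinomas, read 2679 and 2915 at 1 probe and 218 and 211 at the other. MUC16 read 1389 and 1516. WT1, the zinc finger factor that is the usual mark of serous histology, read 965 and 1143 at 1 probe and 660 and 791 at the other. PAX8, the paired box factor of Mullerian and thyroid epithelium, read 984 and 953 at its brightest probe and 266 and 281, and 103 and 108, at its other probes. KRT8 read 1096 and 1228, and KRT7 1071 and 1003. All 6 exceeded every olfactory receptor on both arrays, so the markers of the labelled cell type were present.

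The wider list of Mullerian and serous genes divided into bright members and members not above background. Of 15 genes, 10 were above background (66.7%), a share near the 57.6% of all genes, and 9 of these were in the brightest 10% of genes. MSLN, the mesothelin surface protein that binds MUC16, read 5942 and 6622. WFDC2, which encodes the serum marker HE4, read 1876 and 1903. EMX2, a homeobox factor needed for the Mullerian duct in mice, read 1431 and 1305. FOLR1, the folate receptor alpha of ovarian carcinomas, read 1062 and 1049, with 1 of its 3 probes at background. ESR1, the oestrogen receptor, read 811 and 831. The members not above background were PAX2 (88.2 and 88.3), MECOM (84.5 and 88.5), PGR (84.9 and 86.2), LHX1 (83.8 and 87.0) and SOX17 (83.0 and 85.7). PGR, the progesterone receptor, is a target of ESR1, and SOX17 is a partner factor of PAX8 in tubal epithelium; both were read by a single probe.

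HOX genes, which give the tissues their position along the body axis, were above background for 10 of 29 (34.5%), beside 57.6% of all genes. Of 39 listed HOX genes, 29 had a named probe, and HOXA2 was the only one of these from the HOXA cluster. The rest of the HOXA cluster was therefore not read. Among the genes read, the 3 brightest lay in the anterior part of the HOXB cluster, but HOXB1, at its anterior end, read 87.1 and 83.1. HOXB2 read 2324 and 2568. HOXB4 read 476 and 594, and HOXB3 381 and 501. Of the HOX genes read, these 3 were over 2 times the background mode, beside 6511 of all 20045 genes. HOXB7 followed at 171 and 164. HOXB5, at 113 and 120, and HOXB6 lay below HOXB7, so brightness did not fall evenly along the cluster. HOXB8 (85.5 and 81.7), HOXB9 (80.4 and 83.9) and HOXB13 (86.6 and 86.4), at the posterior end of the same cluster, were at background.

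Markers of the ciliated tubal cell, the other main cell of that epithelium, were above background for 2 of 9 genes. The share over all genes was 57.6%. CAPS, a calcium-binding protein of ciliated cells, read 282 and 275, and CIMAP3 93.1 and 92.8. FOXJ1, the factor that drives the making of motile cilia, read 82.1 and 85.4. SNTN and DNAI1, components of motile cilia, were at background as well. Of 6 markers of intestinal or clear cell type, 0 were above background, among them CDX2 (85.0 and 88.8), NAPSA (90.2 and 89.8) and KRT20 (87.8 and 85.3). Of 9 genes of granulosa and steroid-making cells, 2 were, CYP11A1 at 97.2 and 106 and FOXL2 at 102 and 94.5, both within the range of the olfactory receptors.

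**Figure D2:**
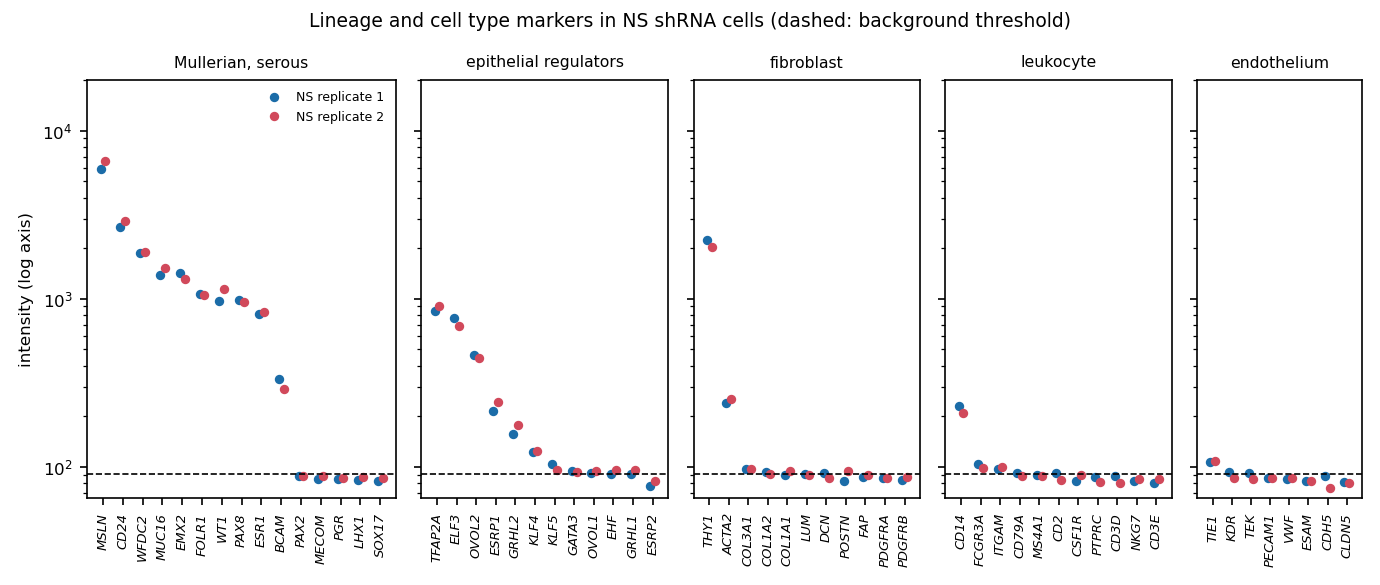
Intensity (log axis) of Mullerian and serous, epithelial regulator, fibroblast, leukocyte and endothelial genes, 1 point for each NS array, ordered by brightness within each panel; the dashed line is the threshold of 91.3. The serous genes separate into 10 above and 5 at background, while in the last 3 panels THY1, ACTA2 and CD14 are the genes well above the line.

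Beside the 57.6% of all genes, the share above background was 27.3% for markers of fibroblasts and of leukocytes, 12.5% for endothelium and 66.7% for mesothelium. Of 11 fibroblast genes 3 were above background. THY1, a surface protein of fibroblasts and several other cells, read 2233 and 2043, the smooth muscle actin ACTA2 read 241 and 252, and the collagen gene COL3A1 97.6 and 96.6. The receptors PDGFRA (86.1 and 85.8) and PDGFRB (83.6 and 87.7) and the matrix genes DCN and LUM were not above background. COL1A1 read 89.4 and 94.0, on either side of the threshold.

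Of 11 leukocyte genes 3 were above background, led by CD14, the lipopolysaccharide co-receptor of monocytes, at 232 and 209. The other probe of CD14 read 99.3 and 97.3, within the range of the olfactory receptors. PTPRC, the CD45 antigen of all leukocytes, read 87.3 and 81.6, with all 4 of its probes at background. The T cell genes CD3E and CD3D were at background too. Of 8 endothelial genes the 1 above background was TIE1 at 107 and 109, and PECAM1, VWF and CDH5 were not. Of 6 mesothelial genes 4 were above background, the same share as in the Mullerian and serous list, with UPK3B at 237 and 250 and the others, UPK1B, LRRN4 and CALB2, at or under 142. Of 26 genes restricted to liver, muscle, brain, blood, testis or pancreas, 5 (19.2%) were above background, and the brightest of them was APOA1, the apolipoprotein of high-density lipoprotein, at 279 and 307. ALB read 101 and 115. GFAP, HBB and INS were among those not above background.

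Epithelial adhesion genes were above background for 22 of 27 (81.5%), beside 57.6% of all genes. Their median intensity was 367, beside 102 over all genes. EPCAM, the epithelial adhesion molecule used to catch carcinoma cells, read 4011 and 4189. SPINT2, an inhibitor of membrane serine proteases, read 3358 and 3899. CDH1, the E-cadherin of adherens junctions, read 1196 and 1331, and JUP, its linker plakoglobin, 1475 and 1413. The desmosomal cadherin DSG2 read 2228 and 1809. Of the claudins, which seal tight junctions, CLDN1 read 1462 and 1508 and CLDN7 1277 and 1405. MUC1, a mucin found on most adenocarcinomas, read 88.9 and 85.6 with all 3 of its probes at background, and OCLN, occludin, read 83.5 and 87.8. DSG3, CLDN6 and CLDN18 were also not above background.

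Keratins were above background for 11 of 19 genes, 57.9%, which is the share of all genes. KRT19, of simple epithelia, read 5516 and 5793. KRT18, the partner with which KRT8 forms filaments, read 245 and 211 at 1 probe and 120 and 125 at the other. KRT80 read 606 and 678, and KRT4, of stratified mucosa, 475 and 520. The basal keratins KRT5 (87.3 and 88.2) and KRT14 (84.2 and 80.8) and the epidermal keratins KRT1 and KRT2 were at background.

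Transcriptional and splicing regulators of the epithelial state were above background for 9 of 12 genes (75.0%), beside 57.6% of all genes. Of the 12, 4 exceeded 2 times the background mode, beside 6511 of all 20045 genes. TFAP2A read 851 and 904, with 1 of its 5 probes at background. ELF3, an ETS factor of epithelia, read 770 and 693, and OVOL2, which represses mesenchymal genes, 463 and 443. ESRP1, the epithelial splicing regulator, read 217 and 244, while the single probe of its paralog ESRP2 read 76.9 and 82.3. GRHL2, a grainyhead factor, read 158 and 178.

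Mesenchymal genes were above background for 11 of 16 (68.8%), beside 57.6% of all genes. Of the 16, 5 exceeded 2 times the background mode, beside 6511 of all 20045 genes. The matrix protein SPARC read 485 and 490. VIM, the intermediate filament vimentin, read 429 and 472, and AXL, a receptor kinase, 452 and 389. The N-cadherin gene CDH2 read 122 and 117, and FN1, fibronectin, 94.4 and 101. Of the factors that repress CDH1, TWIST1 read 170 on both arrays, and ZEB1 (76.6 and 80.9), ZEB2 (83.5 and 87.5), SNAI1 (89.3 and 88.6) and SNAI2 (89.7 and 88.7) were at background.

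The cytosolic folate cycle was above background for 8 of 9 genes (88.9%), beside 57.6% of all genes. SHMT1, the cytosolic enzyme that moves a carbon from serine to tetrahydrofolate and the target of the shRNAs of the other arrays, read 542 and 544 at its brightest probe. Its other 2 probes read 116 and 126, and 106 and 101, and were above background on both arrays. ATIC and GART, which spend formyl-tetrahydrofolate on purine synthesis, read 2128 and 2134, and 917 and 1033. TYMS, which makes thymidylate, read 838 and 852. MTHFD1, which interconverts the folate forms, read 213 and 225, and MTR, methionine synthase, 174 and 154. ALDH1L1, which oxidises formyl groups to carbon dioxide, was the member at background, at 86.1 and 90.9.

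The mitochondrial arm was above background for 9 of 9 genes, beside 57.6% of all genes. SHMT2, the mitochondrial counterpart of SHMT1, read 1832 and 1598. MTHFD1L, which releases formate to the cytosol, read 664 and 668, and MTHFD2, known from embryos and tumours, 669 and 573. Of the glycine cleavage system, GLDC read 248 and 266, GCSH 516 and 571 at 1 of its 3 probes with the others at background, DLD 450 and 385, and AMT 98.5 and 93.7. ALDH1L2 read 93.2 and 94.9, so AMT and ALDH1L2 lay within the range of the olfactory receptors.

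Uptake and retention of folate was above background for 6 of 8 genes (75.0%), beside 57.6% of all genes. Beside FOLR1, GGH, which removes the glutamate tail that holds folate in the cell, read 599 and 554. SLC19A1, the reduced folate carrier, read 172 and 171. FPGS, which adds that tail, read 107 and 118, and SLC25A32, the mitochondrial folate carrier, 84.0 and 82.5.

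Serine synthesis and transport was above background for 5 of 6 genes (83.3%), beside 57.6% of all genes. PHGDH, the first enzyme of the pathway from glycolysis to serine, read 2296 and 2310. PSAT1 followed at 607 and 602, with 1 of its 2 probes at background, and PSPH at 204 and 221. In the methionine cycle, 5 of 9 genes were above background (55.6%), near the 57.6% of all genes. AHCY, which clears S-adenosylhomocysteine, read 2637 and 2859, and MAT2A, the enzyme that makes S-adenosylmethionine outside the liver, 2264 and 2179. The liver enzymes MAT1A, BHMT and GNMT were at background, and MTAP, which salvages methionine, read 90.8 and 88.1.

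**Figure D3:**
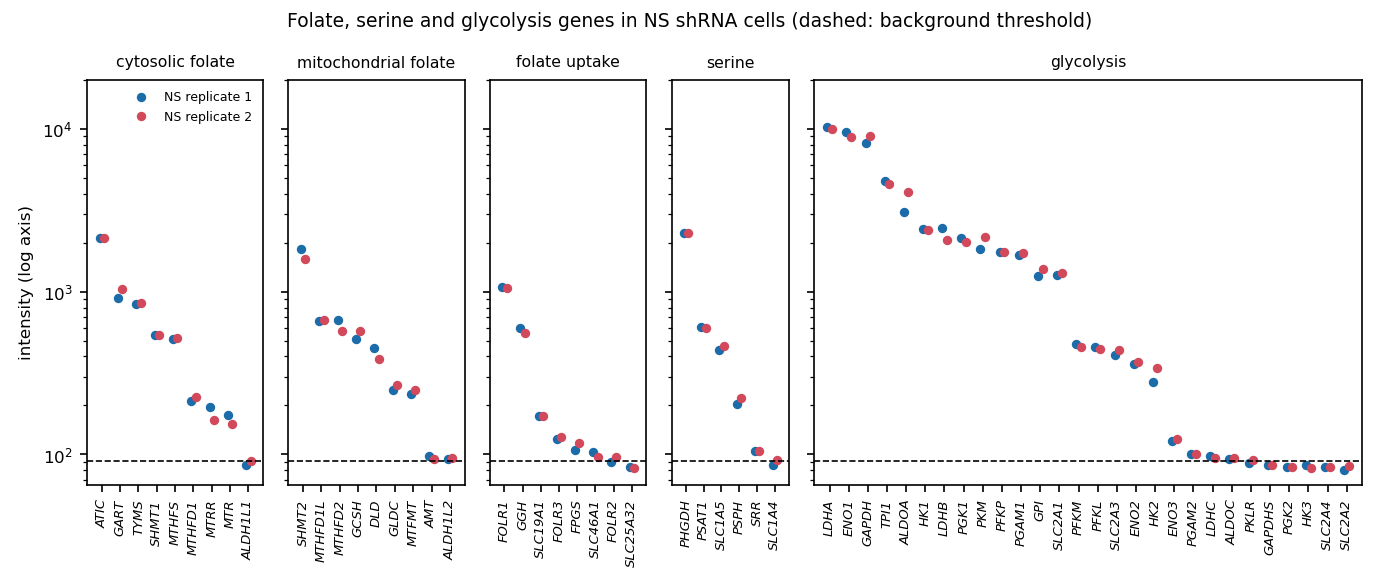
Intensity (log axis) of folate, serine and glycolysis genes, 1 point for each NS array, ordered by brightness within each panel; the dashed line is the threshold of 91.3. SHMT1 is at 542 and 544, the mitochondrial arm has no member under the line, and LDHA at 10337 and 10064 is the brightest gene plotted.

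Glycolysis was above background for 22 of 28 genes (78.6%), beside 57.6% of all genes, and 13 of these 22 lay in the brightest 10% of genes. LDHA, which turns pyruvate into lactate, read 10337 and 10064 at its brightest probe. ENO1 read 9540 and 8927, and GAPDH 8169 and 9034. The glucose transporter SLC2A1 read 1273 and 1310. Of the hexokinases, HK1 read 2415 and 2412 at 1 of its 4 probes, with 2 others at background, and HK2 278 and 339, while HK3 was at background. The other 5 not above background were forms of liver, muscle or testis, namely SLC2A2, SLC2A4, PKLR, PGK2 and GAPDHS. Gluconeogenesis was above background for 3 of 6 genes, with the mitochondrial PCK2 at 515 and 517 and the cytosolic PCK1 at 89.4 and 83.7. The pentose phosphate pathway was above background for 6 of 8, with the paralogs TKTL1 and TKTL2 at background. TALDO1 read 1372 and 1555, with 1 of its 2 probes at background.

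In the respiratory chain and ATP synthase 68 of 78 genes (87.2%) were above background, beside 57.6% of all genes. The median intensity of the 78 was 1667, beside 102 over all genes. ATP5ME, a subunit of the membrane part of ATP synthase, read 7934 and 8842. COX7C of cytochrome oxidase read 8054 and 7872. Of the 10 not above background, COX4I2, COX6A2, COX7A1 and COX8C are forms restricted to certain tissues. Others are constitutive subunits of complex I, NDUFS6 at 76.4 and 83.0, NDUFA5 at 86.1 and 84.2 and NDUFB4 at 95.6 and 89.1. In the citric acid cycle 20 of 21 genes were above background, led by MDH2 at 4770 and 4210, and the exception was PDHA2, the testis form, at 86.1 and 84.0.

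Nucleotide synthesis takes up folate carbons. Purine synthesis and salvage had 18 of 19 genes above background, beside 57.6% of all genes, with PAICS at 2220 and 2376 and IMPDH2, the step towards guanine nucleotides, at 1730 and 1696. Pyrimidine and deoxynucleotide synthesis had 20 of 21, with thymidine kinase TK1 at 1696 and 1710 and RRM1, the large subunit of ribonucleotide reductase, at 1173 and 1078. Among genes of glutamine and amino acid supply 11 of 14 were above background, with SLC7A5, the carrier of large neutral amino acids, at 2816 and 3070 and ASNS, asparagine synthetase, at 1007 and 967. SLC7A11, the cystine carrier, read 89.3 and 87.5.

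Fatty acid synthesis and oxidation had 18 of 23 genes above background, beside 57.6% of all genes. FASN, the fatty acid synthase, read 3029 and 3188, and SCD 422 and 389. CD36, a fatty acid uptake receptor, was at background at all 3 of its probes. Sterol synthesis had 17 of 18, with SQLE, squalene epoxidase, at 944 and 998.

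Amino sugar and sialic acid synthesis was above background for 14 of 18 genes (77.8%), beside 57.6% of all genes. Its median intensity was 229, beside 102 over all genes. GNPDA1, which turns glucosamine 6-phosphate back into fructose 6-phosphate, read 1313 and 1440. GFPT1, which starts the path, read 442 and 406. Of the sialic acid steps, GNE read 116 and 104, NANS 158 and 167, NANP 101 on both arrays and CMAS, which activates the sugar, 739 and 723. The sialyltransferases, which add sialic acid to glycans, were above background for 11 of 20 (55.0%), near the share of all genes. ST3GAL1 read 349 and 346, and ST6GAL1 222 and 230 with 2 of its 3 probes at background.

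Cytokines and chemokines were above background for 16 of 30 genes (53.3%), near the 57.6% of all genes. Of the 30, 8 exceeded 2 times the background mode, beside 6511 of all 20045 genes. MIF, a cytokine that most cells store, read 4210 and 4227. IL18, an epithelial cytokine released by caspase cleavage, read 3957 and 3692. CXCL8, a neutrophil chemokine, read 1433 and 1411. CCL5 read 685 and 718. IL10 read 952 and 812 at 1 probe and 86.6 and 81.4 at the other. IL6 read 200 and 192, and TNF 185 and 166. IL1A, IL1B and TGFB1 were at background.

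Of the receptors and their STAT pathway, 9 of 16 genes were above background (56.2%), near the share of all genes. IL6ST, the shared signalling chain gp130, read 578 and 710, with 1 of its 3 probes at background, whereas IL6R, the chain that binds IL6, read 87.0 and 96.0. STAT3 read 344 and 378 and JAK1 328 and 386. Growth factor receptor kinases were above background for 12 of 22 (54.5%), again near it. DDR1, a collagen receptor, read 938 and 1087. ERBB2 read 902 and 887, with 2 of its 3 probes at background, ERBB3 444 and 578, and EGFR 217 and 227, with 2 of its 4 probes at background. ERBB4, KIT, FGFR1 and FGFR2 were at background.

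Genes recurrently altered in serous carcinoma were above background for 14 of 18 (77.8%), beside 57.6% of all genes. MYC read 2236 and 2606. CCND1, cyclin D1, read 2256 and 2337, and BRCA1 217 and 211. CCNE1, cyclin E1, read 176 and 189 at 1 probe and 87.9 and 85.2 at the other. CDKN2A, the cell cycle inhibitor locus, read 83.9 and 85.9 with all 3 of its probes at background, and MYCN and MYCL were at background. Genes of platinum and drug handling were above background for 13 of 16 (81.2%), beside the same 57.6%. Beside MT2A, GSTP1, a glutathione transferase, read 6126 and 6289, and MT1X 1283 and 1363. The drug efflux pump ABCC3 read 875 and 994, while ABCB1 lay just over the threshold, at 91.3 and 91.8, and ABCG2 below it, at 77.3 and 79.9.

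Antigen presentation was above background for 15 of 16 genes (93.8%), beside 57.6% of all genes. B2M, the shared light chain of class I molecules, read 6105 and 5008, HLA-B 751 and 763, and the peptide transporter TAP1 731 and 735. The class II chain HLA-DRA read 234 and 230, while CIITA, the factor that drives class II genes, read 83.2 and 85.1. Of the genes often used as references, 11 of 11 were above background, though PPIA read 127 and 119. The PPIA-like gene PPIAL4A read 9819 and 9061 at its brightest probe and 2108 and 2127 at its other. Whether these probes also report PPIA was not tested, so the low PPIA reading does not show that the gene is nearly silent. The chaperones and ferritin genes were above background for 13 of 14, led by FTL, the ferritin light chain, at 7282 and 8773, with NPM1 the exception.

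**Figure D4:**
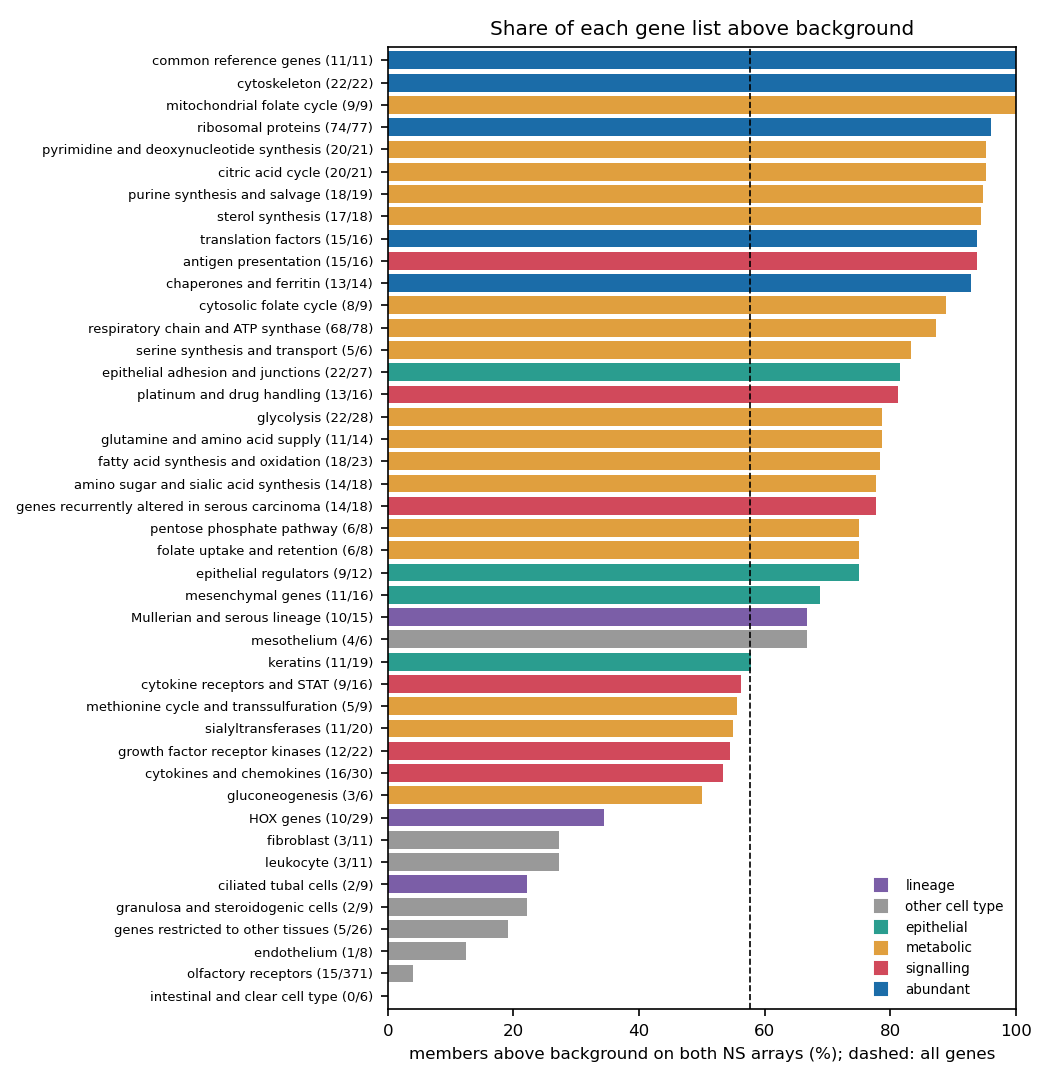
Percentage of the genes of each list that were above background on both NS arrays, with the counts in parentheses and the colour giving the kind of list; the dashed line is the 57.6% of all genes. Lists of translation, the cytoskeleton and most of metabolism stand to the right of the line, and most lists of other cell types to the left, with 4.04% for olfactory receptors.

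Promoter sequence differed between the genes above background and the others, as a description of 14971 genes with a RefSeq promoter of 250 bases before to 50 after the start. The CpG ratio, the number of CG pairs over that expected from the C and G content, exceeded 0.6 in 7624 of 9289 genes above background (82.1%) and in 2298 of 5682 others (40.4%). It did so in 48.9% of all promoters in the table. Within the genes above background the share was 67.0% in the dimmest 10% and 88.4% in the brightest 10%. Ribosomal protein genes had such a promoter in 64 of 65 cases, the respiratory chain in 57 of 64 and the cytosolic folate cycle in 8 of 8. Among keratins the count was 0 of 9 and among the 5 serous markers with a matched promoter it was 1, CD24. Olfactory receptors had it in 6 of 294.

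The motif TATAAA, at 50 to 11 bases before the start, was in 174 genes above background (1.87%), in 378 of the others (6.65%) and in 2.81% of all promoters. On the reverse strand, read as TTTATA, the shares were 0.452%, 1.27% and 0.923%. By brightness the forward share was 3.01% in the dimmest 10% of the genes above background, 0.862% in the bin just above their middle and 3.12% in the brightest 10%. It was in 0 of 64 respiratory chain genes and in 7 of 23 cytokines (30.4%). The windows below, 40 to 11 bases before the start, show the motif in capitals for the members of the cytokine and drug handling lists that had it and were above background; they were chosen after their values were seen, and a match is a stretch of letters and not a site shown to act.
MT2A, chr16:56608544-56608573, plus strand: ctctttctagcTATAAAcactgcttgccgc
CXCL8, chr4:73740529-73740558, plus strand: gggtgatgaTATAAAaagccaccggagcac
MT1X, chr16:56682430-56682459, plus strand: cttcccggacTATAAAgagagccgccggct
IL10, chr1:206772505-206772534, minus strand: gagcttacaaTATAAAagggggacagagag
TNF, chr6:31575525-31575554, plus strand: ccccagggacaTATAAAggcagttgttggc
CCL20, chr2:227813802-227813831, plus strand: ccaatatttgcTATAAAtagggccatccca
The first T of the motif stood 31 bases before the start in CXCL8, 30 in MT1X and IL10, and 29 in MT2A, TNF and CCL20. These genes spanned the range of the arrays, from MT2A at 11750 and 11108 to CCL20, a chemokine for CCR6-bearing cells, at 135 and 129.

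**Figure D5:**
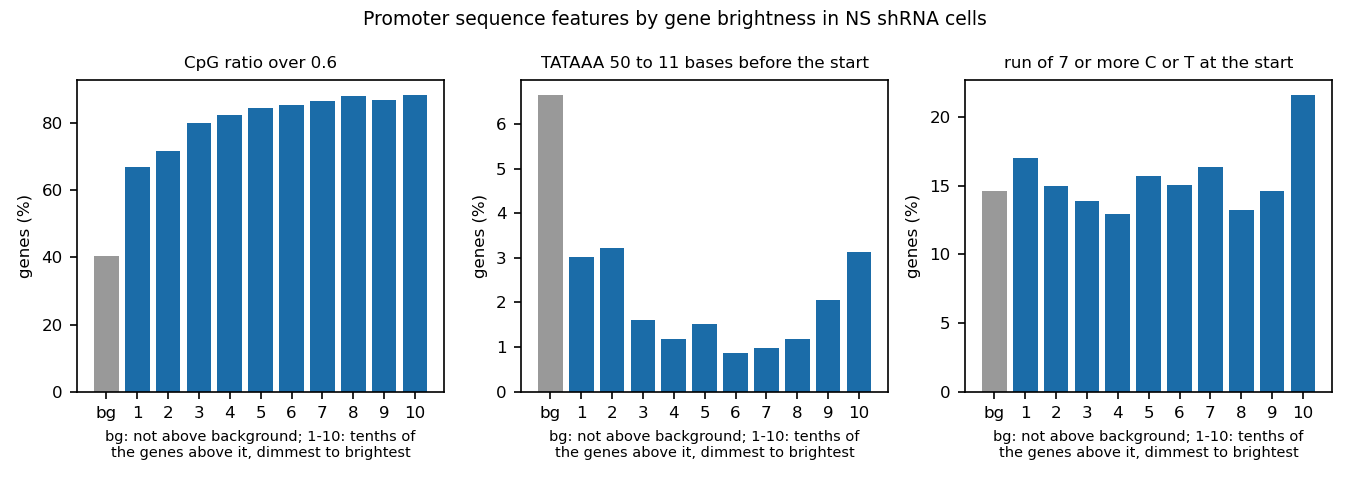
Percentage of genes with a CpG ratio over 0.6, with TATAAA at 50 to 11 bases before the start, and with a run of at least 7 C or T at the start, for genes not above background (grey) and for 10 equal bins of the genes above it from dimmest to brightest (blue). The first share climbs from 40.4% to 88.4%, the second is highest at 6.65% in genes not above background, and the third stands at 21.6% in the brightest bin.

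The pyrimidine run shown above for the ribosomal protein genes was in 15.5% of genes above background and in 14.6% of the others. It was in 21.6% of the brightest 10%. Of the 100 brightest genes with a matched promoter 43 had it, and of the 100 brightest without the ribosomal protein genes 23 did.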

How the data were processed

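The authors processed 6 Illumina HumanHT-12 V4.0 arrays in GenomeStudio, log2-transformed and quantile-normalized them in lumi, and deposited linear-scale intensity values for each probe, of which those of the 2 NS arrays were used. The version of lumi and any background correction are not given in the sources used here. Quantile normalization gives every array the same set of values, so the 45.6% of probes above the threshold on each array is fixed by it. In the other deposited table, which holds non-normalized signals, 6 signal columns and 6 of detection p-values have names that no label of a sample matches, so that table was left out.

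Probes were named from the platform annotation. A single gene symbol was given for 30112, several for 8 and none for 17201, and probes without a single symbol, among them 58 of the 100 brightest, stay unnamed. The background mode was found in a histogram of log2 intensities in Python 3.11.15 with numpy 2.4.6 and pandas 2.3.3, the values under it were mirrored, and the method was tested on simulated arrays. The 42 lists held 838 genes, 763 with a named probe. The members and lists were chosen with earlier results of these data known. Named genes were the 6 markers, the 40 brightest, the 10 with the largest difference between the arrays and members of the lists. Per list, values were given for at most the 8 brightest members above background and 6 not above it. RPL37, CDH2, FN1, ALDH1L2, SLC2A1, HK2, GNE, NANS, NANP, TNF, CCL20, BRCA1, CCNE1, ABCB1, HLA-DRA and PPIA fall outside that rule and were chosen after their values were seen. Alternatives were other thresholds, a single array, at least 1 array in place of both, and the mean over a gene's probes. A threshold of 2 times the background mode was chosen after seeing the data. Precision is limited by the number of arrays.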

Additional observations from a re-analysis of the deposited data

How the results depend on the processing

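Of 276 alternatives computed for 46 results, 255 left the value unchanged or within 1.5 times. The count of genes above background, 11542, was 10916 at the 99th percentile of the background, 11257 at a threshold set from the olfactory receptors, 13083 with at least 1 array, 11103 with the mean over all probes and 12334 to 12357 on a single array, and it was 6511 at 2 times the background mode, a level chosen after seeing the data. The 6 markers stayed above background under every alternative. With the mean over all probes 66 of the 100 brightest genes were shared. The counts that moved were those of lists near the threshold. Ciliated genes, 2 of 9, were 1 at the 99th percentile, 6 with at least 1 array, 1 with the mean over probes, and 3 to 5 on a single array. Granulosa genes were 1 with the mean over probes, as were the genes restricted to other tissues. With at least 1 array the counts were 1 for intestinal and clear cell type, 7 for fibroblast, 5 for leukocyte, 3 for endothelium and 50 for olfactory receptors, which were 8 at the 99th percentile. On a single array they were 0 to 1, 5 to 6, 3 to 5, 1 to 3 and 30 to 35 in the same order. No paired analysis was possible because only 1 group was used. Signal near the background limits these calls. The arrays correlated at 0.404 among genes not above background, against 0.996 among those above it. The genes not above background span a narrow range by the threshold, so this r does not measure poorer agreement. Their SD of the log2 difference was 0.073, against 0.13 for genes above background.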
